A study of Homo sapiens with 12 samples.

Results

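Transcripts of 38 amino acid transporter genes were followed in HK-2 cells, a human line of immortalized epithelium from the renal proximal tubule, by Affymetrix expression array. The genes were chosen by name from the solute carrier families SLC1, SLC3, SLC6, SLC7, SLC16, SLC36, SLC38 and SLC43, with no threshold on their values, out of 19775 gene symbols on the array. Each gene was represented by the probe set, a group of probes against the same transcript, with the highest mean over the 12 arrays. The 4 groups were cells given a low dose of Kbr for 24 h, their vehicle controls at 24 h, cells given a low dose for 48 h and their controls at 48 h, with 3 biological replicates each. All 4 groups came from the same cell line and the same hormone-supplemented medium, which held EGF, hydrocortisone, insulin, transferrin and selenite. The labels do not say what Kbr stands for or at which concentration it was given. The study set treated against control cells at each time to look for expression signatures of toxicity, as 1 of several compounds tested on these cells.

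Amino acid transporters move amino acids across the plasma membrane and the membranes of lysosomes. In the proximal tubule they recover filtered amino acids from the urine, through sodium-coupled carriers of the brush border and exchangers on the blood side. A further group is used by most cells to feed protein synthesis. Several genes of that group are known targets of ATF4, a transcription factor made when the kinases of eIF2 (an initiation factor of translation) are active, as under amino acid shortage.

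Values are log2 expression values, so that a difference of 1 is a 2-fold change. The median of an array lay between 2.91 and 2.99, and arrays of the same group correlated at 0.982 to 0.993 across the genes tested. The ACTB control probes at the 3′ end read higher than those at the 5′ end, a measure of RNA integrity, by 0.854 ± 0.11 in Kbr cells and 0.794 ± 0.17 in controls at 24 h, and 0.909 ± 0.15 in Kbr cells and 0.815 ± 0.19 in controls at 48 h (SD, n = 3). Of 14 proximal tubule markers measured, 13 did not exceed a log2 value of 4 on 3 or more arrays, among them the endocytic receptors LRP2 and CUBN, the water channel AQP1 and the glucose carrier SLC5A2. DPP4, a brush border peptidase, was the exception, and it was lower in Kbr cells at 48 h. The label of proximal tubule was thus borne out by 1 of its 14 measured markers. The summed log2 level of all 14 was 45.2 to 46.4 in Kbr cells and 45.9 to 46.6 in controls at 48 h. As 13 of the 14 did not pass the filter, this sum is mostly made of values near background. None of 5 endothelial and none of 4 blood cell markers passed that filter.

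Of the 38 transporters, 27 exceeded a log2 value of 4 on 3 arrays or more and were tested, as were 10665 of the 19775 genes. The other 11 did not pass. SLC7A9, the light chain that pairs with SLC3A1 in cystine reabsorption, lay between 1.76 and 1.78 on all arrays. SLC6A19, the main neutral amino acid carrier of the brush border, lay between 3.23 and 3.29. The glutamate transporter SLC1A1 lay between 2.65 and 3.01, and its relatives SLC1A2 and SLC1A3 between 2.73 and 2.90 and between 2.56 and 2.63. SLC6A14, SLC16A10 (an aromatic amino acid carrier), SLC38A3, SLC38A4 and SLC43A1 also stayed below 4 on every array. SLC6A9, a glycine transporter, read 4.29, 2.44 and 2.18 in Kbr replicates 1, 2 and 3 at 48 h, against 2.17, 2.18 and 2.19 in controls. It was thus above 4 on a single array and was not tested.

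At 48 h the heavy chain SLC3A2 and its light chain SLC7A5 rose most among the transporters, together with SLC7A1, SLC38A6 and SLC38A9. The heavy chain SLC3A1 and SLC6A13 fell most, together with SLC38A10, SLC6A6, SLC6A20 and SLC7A2. Of the 27 tested transporters 5 were higher, 6 were lower and 16 did not pass at an adjusted p of 0.05, and 6 of the 11 differed at least 2-fold. Over all genes tested, 42.8% passed at 48 h, 22.0% higher and 20.8% lower, so the share of transporters that passed, 40.7%, lay near that of all genes. At 24 h SLC38A6 and SLC7A2 were higher and SLC3A1 and SLC38A10 lower, 4 of 27, where 5.74% of all genes passed, 2.48% higher and 3.25% lower. The median log2 change of the tested transporters was 0.04 at 24 h and 0.13 at 48 h, against -0.02 and 0.00 over all genes. With the replicate number as a block, 7 transporters passed at 24 h, 4 higher and 3 lower, against 24.4% of all genes (10.4% higher, 14.0% lower). At 48 h 14 passed, 8 higher and 6 lower, against 57.5% of all genes (28.7% higher, 28.8% lower). With only the 6 arrays of 48 h in the fit, 7 of the 11 passed. The 3 Kbr arrays lay wholly above or below the 3 controls in 10 of 27 transporters at 48 h, 5 higher and 5 lower, and in 50.9% of all genes (26.0% higher, 24.9% lower). At 24 h this held in 8 of 27, 5 higher and 3 lower, and in 31.8% of all genes (15.9% each way).

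**Figure D1:**
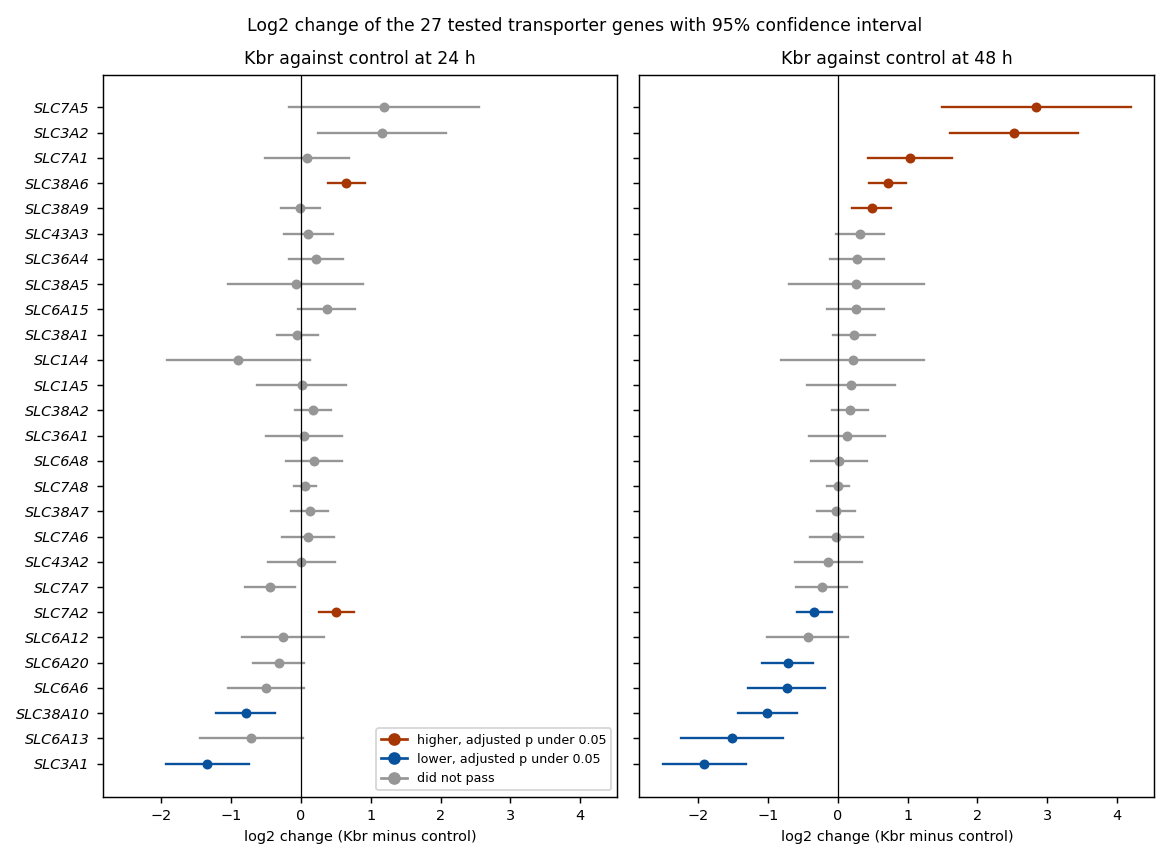
Log2 change (Kbr minus control, horizontal axis) of the 27 tested transporters at 24 h (left) and 48 h (right), as points with 95% confidence intervals, sorted by the change at 48 h. SLC7A5 (2.84) and SLC3A2 (2.52) stand at the top and SLC3A1 (-1.91) at the bottom at 48 h, and SLC7A2 is higher at 24 h and lower at 48 h.

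The heteromeric transporters are built from a heavy chain, which brings the complex to the membrane, and a light chain, which carries the amino acid. SLC3A2 is the heavy chain for most light chains and is found in most cell types, while SLC3A1 is the heavy chain of the brush border and carries mutations in cystinuria. The 2 heavy chains moved in opposite directions at 48 h. SLC3A2 read 12.25, 11.33 and 10.53 in Kbr replicates 1, 2 and 3 at 48 h, against 9.63, 8.22 and 8.70 in controls. The groups did not overlap, and replicate 1 was the highest in both. SLC3A2 was 5.74-fold higher in Kbr cells at 48 h (log2 change 2.52, standard error 0.42, adjusted p = 0.000878), and it passed in all 12 fits that left out a single array. A day earlier it read 9.67, 9.26 and 9.60 in Kbr cells, against 8.40, 8.08 and 8.57 in controls, again without overlap. That difference, a log2 change of 1.16, did not pass (adjusted p = 0.121). It passed with the replicate block (0.0333) and in the fit of the 24 h arrays alone (0.0287).

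SLC3A1 read 7.55, 7.68 and 7.32 in Kbr cells at 48 h, against 9.85, 9.56 and 8.87 in controls. Every Kbr array lay below every control array. The gene was 3.77-fold lower (log2 change -1.91, standard error 0.27, adjusted p = 0.000395), and it passed in all 12 fits that left out a single array. At 24 h SLC3A1 read 7.43, 6.94 and 7.06 in Kbr cells, against 8.87, 8.59 and 7.99 in controls. This was 2.54-fold lower (log2 change -1.34, adjusted p = 0.021). The call at 24 h was lost without Kbr replicate 2 or 3 or control replicate 1 or 2 at that time (adjusted p up to 0.0962), and in the fit without a filter on low values (0.0518). In bulk RNA such as this, fewer cells that express a gene and less of its RNA per cell cannot be told apart. Transcripts used as fibroblast markers moved in the same direction as SLC3A1. Of 7 such genes 3 were tested, and COL1A1, DCN and LUM all fell at 48 h and 2 of them at 24 h, while COL1A2, COL3A1, PDGFRA and PDGFRB did not pass the filter. The summed log2 level of the 7 was 35.5 to 36.3 in Kbr cells and 41.0 to 41.5 in controls at 48 h, and 39.4 to 41.0 and 42.0 to 43.2 at 24 h. The collecting duct and distal tubule list also fell at 48 h in both tested members of 10 measured, AQP3 and SCNN1A, with a summed level of 33.0 to 33.5 in Kbr cells and 37.2 to 37.4 in controls. At 24 h its sum was 32.9 to 34.7 in Kbr cells and 35.2 to 37.1 in controls. The part of these transcripts in the results was not tested.

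Among the 5 light chains, SLC7A5 rose at 48 h, SLC7A6, SLC7A7 and SLC7A8 did not pass and SLC7A9 was not tested. SLC7A5 exchanges large neutral amino acids such as leucine in partnership with SLC3A2. It read 10.95, 10.04 and 9.47 in Kbr cells at 48 h, against 8.75, 6.24 and 6.93 in controls. The groups did not overlap, and control replicate 1 stood apart from the other 2 controls. SLC7A5 was 7.18-fold higher (log2 change 2.84, standard error 0.61, adjusted p = 0.00395) and passed in all 12 fits that left out an array. At 24 h SLC7A5 read 8.86, 8.03 and 8.92 in Kbr cells, against 7.42, 6.67 and 8.15 in controls, so that the groups overlapped. Within each replicate number the Kbr array was the higher, by 1.44, 1.36 and 0.77, but the log2 change of 1.19 did not pass (adjusted p = 0.264, and 0.0994 with the replicate block). Outside the 38 genes, the cystine light chain SLC7A11, a further partner of SLC3A2, stood at 11.58, 11.87 and 10.18 in Kbr cells and at 9.08, 8.06 and 7.75 in controls at 48 h.

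SLC7A6 and SLC7A7 are light chains that exchange cationic for neutral amino acids. SLC7A6 read 8.35, 8.33 and 8.93 in Kbr cells at 48 h, against 8.45, 8.66 and 8.58 in controls (log2 change -0.02, 95% confidence interval -0.40 to 0.35). At 24 h it read 8.61, 8.61 and 8.95 in Kbr cells, against 8.44, 8.63 and 8.79 in controls. The groups overlapped at both times. SLC7A7 read 6.90, 7.23 and 7.26 in Kbr cells at 48 h, against 7.09, 7.54 and 7.45 in controls (adjusted p = 0.282). Its values at 24 h, 6.68, 6.95 and 6.61 in Kbr cells against 7.27, 7.38 and 6.93 in controls, overlapped at the margin. SLC7A7 had a log2 change of -0.45 at that time, which passed with the replicate block only (adjusted p = 0.131, and 0.0363 with the block). SLC7A8, a basolateral exchanger of neutral amino acids, lay between 4.75 and 4.90 on all 12 arrays. Its log2 changes were 0.06 at 24 h and 0.01 at 48 h. The SD within groups was 0.0027 in Kbr cells and 0.068 in controls at 24 h, and 0.0061 and 0.0070 at 48 h. None of its other probe sets passed the filter, with means over the 12 arrays between 1.97 and 2.74. Whether SLC7A8 was detected above background was not tested, so these small changes do not show a steady level.

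SLC7A1 and SLC7A2 carry arginine, lysine and ornithine without a heavy chain. SLC7A1, the form of most tissues, read 12.22, 11.80 and 10.87 in Kbr cells at 48 h, against 10.90, 10.45 and 10.44 in controls. Kbr replicate 3 lay just below control replicate 1, so the groups overlapped, while each Kbr array exceeded the control of its own number. SLC7A1 was 2.05-fold higher (log2 change 1.03, standard error 0.27, adjusted p = 0.0112). The call held in all 12 fits without an array (adjusted p up to 0.0415), but not in the fit of the 48 h arrays alone (0.0575). At 24 h its values were 10.41, 10.26 and 10.52 in Kbr cells and 10.41, 10.26 and 10.26 in controls (log2 change 0.09, 95% confidence interval -0.51 to 0.69).

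SLC7A2, whose transporter is known from liver and activated macrophages, was higher in Kbr cells at 24 h and lower at 48 h. It read 6.26, 6.15 and 6.38 in Kbr cells at 24 h, against 5.79, 5.60 and 5.87 in controls (log2 change 0.51, standard error 0.11, adjusted p = 0.0325). A day later it read 6.32, 6.45 and 6.59 in Kbr cells, against 6.83, 6.89 and 6.65 in controls (log2 change -0.33, adjusted p = 0.0353). The groups were apart at both times, in opposite directions, and between the times Kbr cells differed by 0.19 and controls by 1.04. Without Kbr replicate 1, 2 or 3 or control replicate 1 or 2 the call at 24 h was lost (adjusted p up to 0.113), as it was in the fit of the 24 h arrays alone (0.0578), and that at 48 h without replicate 1 or 2 of either group (up to 0.114). The call at 48 h was also lost when quantile normalization was repeated (0.0538), with an intensity trend in the variance (0.0686) and in the fit of the 48 h arrays alone (0.0746). The log2 effect at 48 h minus that at 24 h was -0.84 (adjusted p = 0.0753, and 0.021 with the replicate block).

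The amino acid response element is the DNA site at which ATF4, paired with a C/EBP protein, acts on genes of amino acid supply. Its core was searched as TGATGNAA, read on both strands (TTNCATCA on the other), in windows that run from 250 bases before to 50 bases after the start of RefSeq transcripts on GRCh38.p14. Of the 38 transporters 30 were in the promoter table, with 51 windows, and 6 windows (11.8%) held a match, against 1270 of 35116 windows of all genes (3.62%). Among transporters that rose at 48 h, 2 of 5 in the table had a match, and among those that fell 0 of 3. Among those that did not pass 3 of 13 had one, and among those not tested 1 of 9 (SLC1A3). SLC3A1, SLC6A6 and SLC7A2, which also fell at 48 h, were not in the promoter table. The stretches below show the match of the 2 that rose and of the 3 tested genes that did not pass, in gene direction with the match in capitals. They lie at chr11:62881725-62881748 (plus strand, 38 bases after the start of 1 of 3 SLC3A2 windows), chr13:29595663-29595692 (minus strand, 8 bases after the start of SLC7A1), chr2:64989381-64989410 (plus, 7 before a start of SLC1A4), chr19:46784893-46784922 (minus, 97 before a start of SLC1A5) and chr12:46266502-46266531 (minus, 4 before a start of SLC38A1).
SLC3A2: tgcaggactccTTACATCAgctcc
SLC7A1: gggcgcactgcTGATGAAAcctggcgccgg
SLC1A4: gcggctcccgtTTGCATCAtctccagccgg
SLC1A5: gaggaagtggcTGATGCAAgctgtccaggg
SLC38A1: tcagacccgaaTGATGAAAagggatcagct
The window of SLC7A5, the transporter with the highest rise at 48 h, held no match, nor did those of SLC38A6 and SLC38A9. A match of these letters is a description of the sequence and does not show that a factor binds there.

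**Figure D2:**
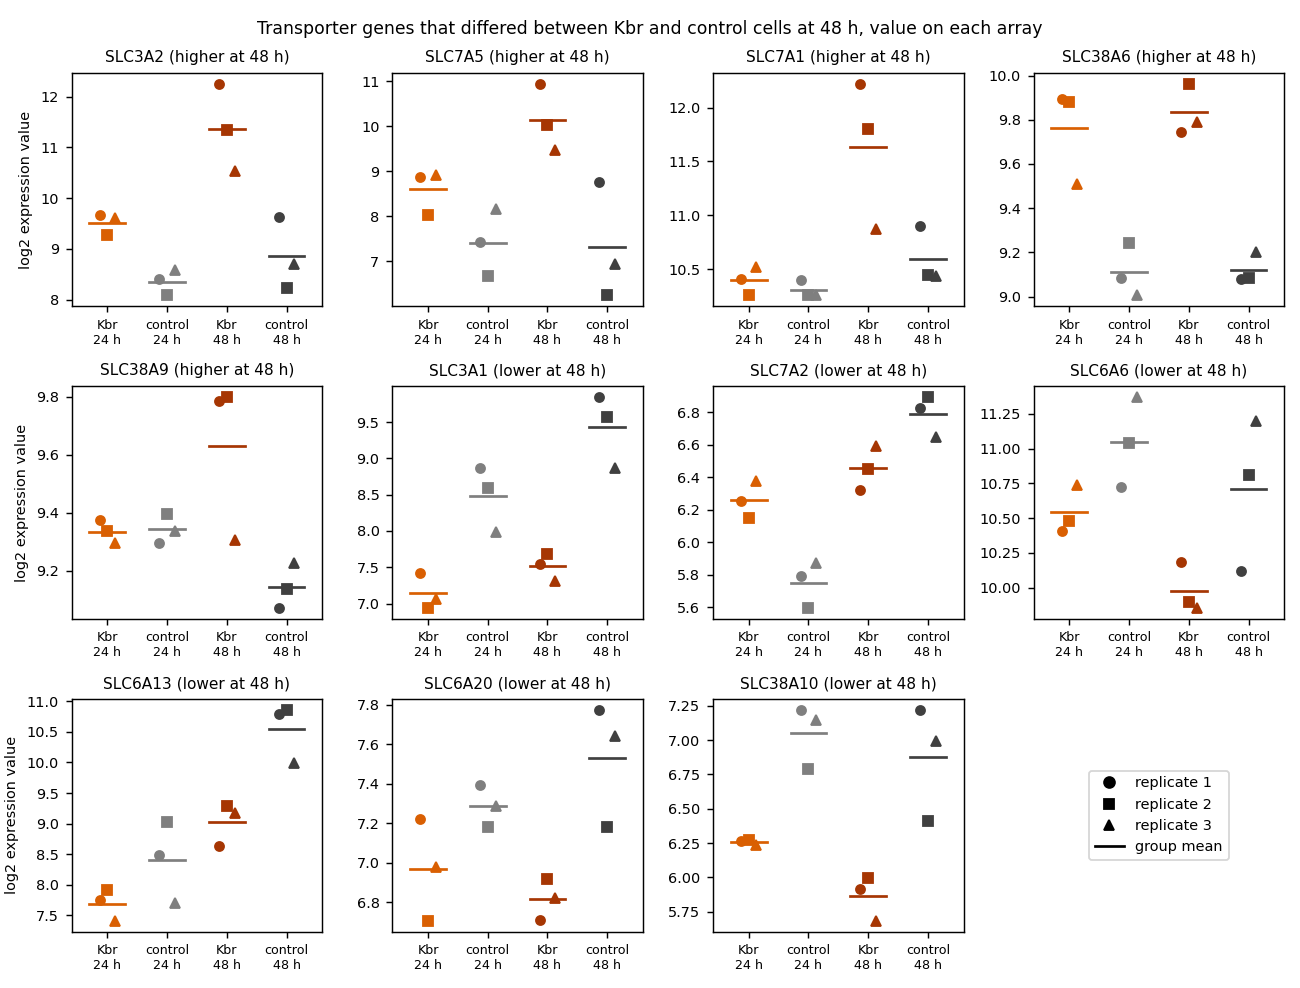
Log2 expression value (vertical axis, a separate scale in each panel) on each of the 12 arrays for the 11 transporters that differed at 48 h, by group, with marker shapes for the replicate number and a bar for the group mean. SLC3A1 lies lower in Kbr cells than in controls at both times, and the 48 h Kbr values of SLC7A1 are 12.22, 11.80 and 10.87.

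The SLC38 family holds sodium-coupled carriers of glutamine, alanine and other small neutral amino acids, some at the plasma membrane and some on lysosomes. Of 9 members 7 were tested. At 48 h 2 rose and 1 fell, near the 42.8% of all genes, and at 24 h 1 rose and 1 fell, against 5.74% of all genes. SLC38A6 read 9.75, 9.96 and 9.79 in Kbr cells at 48 h, against 9.08, 9.08 and 9.20 in controls. Its Kbr arrays lay above all controls, by a log2 change of 0.71 (standard error 0.12, adjusted p = 0.000996). A day earlier they read 9.89, 9.88 and 9.51, against 9.08, 9.24 and 9.01 in controls (log2 change 0.65, adjusted p = 0.0165). SLC38A6 was thus 1.64-fold higher at 48 h and 1.57-fold higher at 24 h, and the effects differed by 0.06. The call at 24 h was lost without Kbr replicate 1 or 2 or control replicate 1 (adjusted p up to 0.071), and in the fit of the 24 h arrays alone (0.0531).

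SLC38A9 is a lysosomal transporter that senses arginine for mTORC1, the kinase complex that matches growth to nutrients. It read 9.78, 9.80 and 9.30 in Kbr cells at 48 h, against 9.07, 9.14 and 9.23 in controls. Kbr replicate 3 lay only 0.077 above the control of its number, while the other two pairs differed by 0.71 and 0.66. SLC38A9 was 1.40-fold higher (log2 change 0.49, standard error 0.13, adjusted p = 0.00991), and at 24 h its change was -0.01 (adjusted p = 0.979). The mean of its 2 probe sets, the second of which stayed below the filter floor, did not pass at 48 h (log2 change 0.16, adjusted p = 0.164), nor did the fit of the 48 h arrays alone (adjusted p = 0.055).

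SLC38A10 was 2.02-fold lower in Kbr cells at 48 h, with 5.91, 6.00 and 5.68 against 7.22, 6.41 and 6.99 in controls (log2 change -1.01, standard error 0.19, adjusted p = 0.00183). Its 24 h values were 6.27, 6.27 and 6.24 in Kbr cells, against 7.22, 6.79 and 7.15 in controls (log2 change -0.79, adjusted p = 0.0383). The groups were apart at both times, but the call at 24 h passed in only 4 of the 12 fits that left out an array (up to 0.149). It was lost without each single array of 24 h, without Kbr replicate 2 or control replicate 3 of 48 h, and in the fit without a filter (0.0798). SLC38A1 and SLC38A2, the plasma membrane glutamine carriers of growing cells, had changes of 0.23 and 0.18 at 48 h that did not pass (adjusted p = 0.189 and 0.252). Without Kbr replicate 3 of 48 h the change of SLC38A1 was 0.40 (adjusted p = 0.0104). SLC38A2, a known target of ATF4, passed with the replicate block (0.0465), with the Kbr array above the control in 3 of 3 pairs. SLC38A5 and SLC38A7 did not pass at either time, with intervals at 48 h of -0.70 to 1.23 and -0.29 to 0.25.

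The SLC6 family couples transport to sodium and chloride. Of 9 members 6 were tested, and 3 fell at 48 h while none rose, against 20.8% of all genes lower and 22.0% higher (0 at an unadjusted p under 0.05 in the limma fit, 1 with the replicate block). None of the 6 passed at 24 h, with or without adjustment, and 1 rose there with the block. SLC6A13, a carrier of GABA, betaine and taurine of kidney and liver, read 8.63, 9.29 and 9.17 in Kbr cells at 48 h, against 10.79, 10.86 and 9.98 in controls. All 3 Kbr arrays lay lower, by 2.86-fold on average (log2 change -1.52, standard error 0.33, adjusted p = 0.00432). A day earlier SLC6A13 read 7.76, 7.91 and 7.41 in Kbr cells, against 8.48, 9.02 and 7.71 in controls (log2 change -0.71, adjusted p = 0.224). Its level rose with time in both treatments, by 1.34 in Kbr cells and by 2.14 in controls. The probe set carries the suffix that Affymetrix gives to probes which may also match other genes, so part of its signal may come from elsewhere. A second SLC6A13 probe set without that suffix also fell at 48 h, with a mean of 4.16 in Kbr cells and 5.18 in controls (adjusted p = 0.00455 over all probe sets). This probe set was above 4 on only 7 of the 12 arrays. Its means at 24 h were 3.92 in Kbr cells and 3.93 in controls, so it lay near the floor outside the 48 h controls.

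SLC6A20, a proline and glycine carrier of the brush border, read 6.71, 6.92 and 6.82 in Kbr cells at 48 h, against 7.78, 7.18 and 7.64 in controls (log2 change -0.72, standard error 0.17, adjusted p = 0.00566). The groups were apart, and the second probe set fell as well, by 1.39 (adjusted p = 0.00243). SLC6A6, the taurine transporter, read 10.19, 9.89 and 9.85 in Kbr cells at 48 h, against 10.12, 10.81 and 11.20 in controls. Kbr replicate 1 lay above its own control, and the other two Kbr arrays lay below theirs. The log2 change of -0.73 passed (standard error 0.25, adjusted p = 0.0353), but not without replicate 2 or 3 of either group (up to 0.128), nor in the fit without a filter (0.0922) or of the 48 h arrays alone (0.0798). Another SLC6A6 probe set moved the other way, as described with the probe sets.

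SLC6A8, the creatine transporter, had changes of 0.19 at 24 h and 0.02 at 48 h, with an interval at 48 h of -0.38 to 0.42. SLC6A12, the betaine carrier of osmotic regulation, had a change of -0.43 at 48 h (adjusted p = 0.211), and without Kbr replicate 3 of 48 h one of -0.71 (adjusted p = 0.0351). SLC6A15, a carrier of branched-chain amino acids and proline, had changes of 0.37 at 24 h and 0.25 at 48 h, each with 3 of 3 Kbr arrays above the control of the same number. Neither passed (adjusted p = 0.256 and 0.295), and both passed with the replicate block (0.0252 and 0.0493).

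In the SLC1 family SLC1A4 and SLC1A5, exchangers of small neutral amino acids and of glutamine, were tested. By the probe set that stood for each gene, neither passed at either time, before adjustment or after, nor with the replicate block. SLC1A4, a known ATF4 target, read 7.51, 7.02 and 7.25 in Kbr cells at 24 h, against 8.44, 7.77 and 8.26 in controls. All Kbr arrays lay below all controls, with a log2 change of -0.90 (standard error 0.46, adjusted p = 0.264). A day later SLC1A4 read 9.16, 8.61 and 6.92 in Kbr cells, against 8.47, 7.68 and 7.90 in controls. Kbr replicates 1 and 2 lay above the control of their number by 0.70 and 0.93, and replicate 3 lay below it by 0.98 on the log2 scale. Without Kbr replicate 3 the log2 change at 48 h was 0.87 (adjusted p = 0.0305), against 0.21 (adjusted p = 0.74) with it. A dimmer SLC1A4 probe set rose by 0.82 at 48 h and passed with the block only (adjusted p = 0.113, and 0.026 with the block, over all probe sets). Another, with a change of 0.31, passed in neither fit. SLC1A5 had a change of 0.19 at 48 h, with an interval of -0.45 to 0.82.

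Of the 6 carriers that work without sodium or with protons, 4 were tested and none passed at 24 or 48 h in limma, before adjustment or after it. The lysosomal and plasma membrane carriers SLC36A1 and SLC36A4 had changes of 0.13 and 0.27 at 48 h, and SLC43A2, which releases branched-chain amino acids, one of -0.14. SLC43A3, which despite its family is known as a carrier of purine nucleobases, had a change of 0.32 at 48 h, with the groups apart (adjusted p = 0.125). It passed with the replicate block (0.013).

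The effect of time in culture was read within each treatment. In controls SLC7A2 and SLC6A13 were higher at 48 h than at 24 h, 2 of 27, and none was lower, where 3.29% of all genes passed (1.42% higher, 1.88% lower). At an unadjusted p under 0.05 in limma 6 were higher and 2 lower. With the block 8 passed, 6 higher and 2 lower, where 22.5% of all genes passed. The block added SLC3A1, SLC6A12, SLC6A15 and SLC38A2 as higher and SLC38A5 and SLC43A3 as lower. SLC7A2 averaged 6.79 ± 0.13 at 48 h and 5.75 ± 0.14 at 24 h in controls (SD, n = 3; adjusted p = 0.00394). SLC6A13 averaged 10.54 ± 0.49 at 48 h and 8.40 ± 0.66 at 24 h in controls (adjusted p = 0.0158). The SLC6A13 call was lost without control replicate 3 of 24 h or control replicate 1 or 2 of 48 h (up to 0.0726), which left 1 transporter, and without Kbr replicate 3 or control replicate 3 of 48 h the count was 4. Neither control call held in the fit of the control arrays alone (adjusted p = 0.0617 for SLC7A2 and 0.112 for SLC6A13). In Kbr cells 5 of 27 were higher at 48 h than at 24 h, SLC3A2, SLC7A1, SLC6A13, SLC6A12 and SLC6A15, and none was lower, where 10.6% of all genes passed (5.60% higher, 5.04% lower). At an unadjusted p under 0.05 in limma 10 were higher and 2 lower. With the block 9 passed, 8 higher and 1 lower, where 30.7% of all genes passed. Here the block added SLC7A5, SLC38A1 and SLC38A2 as higher and SLC43A2 as lower. SLC3A2 averaged 11.37 ± 0.86 at 48 h and 9.51 ± 0.22 at 24 h in Kbr cells (adjusted p = 0.0203). The calls of SLC6A12 and SLC6A15 were lost without each single array of 24 h. They were also lost without a filter (adjusted p = 0.119 and 0.104) and with array medians subtracted (0.0534 and 0.0554). SLC6A12 read 4.74, 4.73 and 4.72 in Kbr cells at 24 h (SD 0.011), and whether it was detected above background there was not tested. The count in Kbr cells depended on single arrays. It was 0 without Kbr replicate 1 or 3 of 24 h or Kbr replicate 2 of 48 h. Without Kbr replicate 2 of 24 h it was 1, but none of the 5 genes above passed there. The 1 was SLC43A2, which was lower at 48 h (adjusted p = 0.0374). The count was 2 without Kbr replicate 1 of 48 h, 3 without control replicate 2 of either time and 8 without Kbr replicate 3 of 48 h.

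The 48 h effect was also set against the 24 h effect directly. None of the 27 transporters passed, where 0.141% of all genes did; 4 had an unadjusted p under 0.05 in limma, and SLC7A2 passed with the replicate block (7.36% of all genes). SLC7A5 had the widest difference between the times, 1.65 (standard error 0.87, adjusted p = 0.38), and SLC3A2 had 1.36 (adjusted p = 0.29). Without Kbr replicate 3 of 48 h 4 transporters passed this comparison, SLC1A4 (1.77, adjusted p = 0.0332), SLC7A1 (1.32, 0.0169), SLC38A9 (0.66, 0.0173) and SLC7A2 (-0.91, 0.0186). The 4 calls at 24 h likewise depended on single arrays of that time. Without Kbr replicate 1 or 3 or control replicate 2 of 24 h the count was 1, and without Kbr replicate 2 or control replicate 1 it was 0.

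Kbr replicate 3 of 48 h was the lowest of its group in SLC3A2, SLC7A5, SLC7A1, SLC38A9 and SLC1A4. It was also the lowest in some regulators of the amino acid response, among them ATF3 and DDIT3, but not in others. In ATF5 (7.68, 7.66 and 7.95 in Kbr replicates 1, 2 and 3 at 48 h) and EIF2AK1 (11.27, 11.30 and 11.40) it was the highest. In EIF2S1 and EIF2AK2 Kbr replicate 1 was the lowest. ATF3 read 11.84, 11.25 and 8.49 in Kbr cells at 48 h, against 7.08, 5.45 and 5.53 in controls. DDIT3, which encodes the transcription factor CHOP, read 13.34, 13.12 and 10.99, against 10.91, 9.05 and 8.96. Control replicate 1 of 48 h, in turn, was the highest control of its time in SLC3A2, SLC7A5, SLC7A1, ATF3 and DDIT3. Among transporters that fell, Kbr replicate 3 of 48 h was the lowest of its group in SLC3A1, SLC6A6 and SLC38A10. The part of these replicate differences in the transporter results was not tested.

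**Figure D3:**
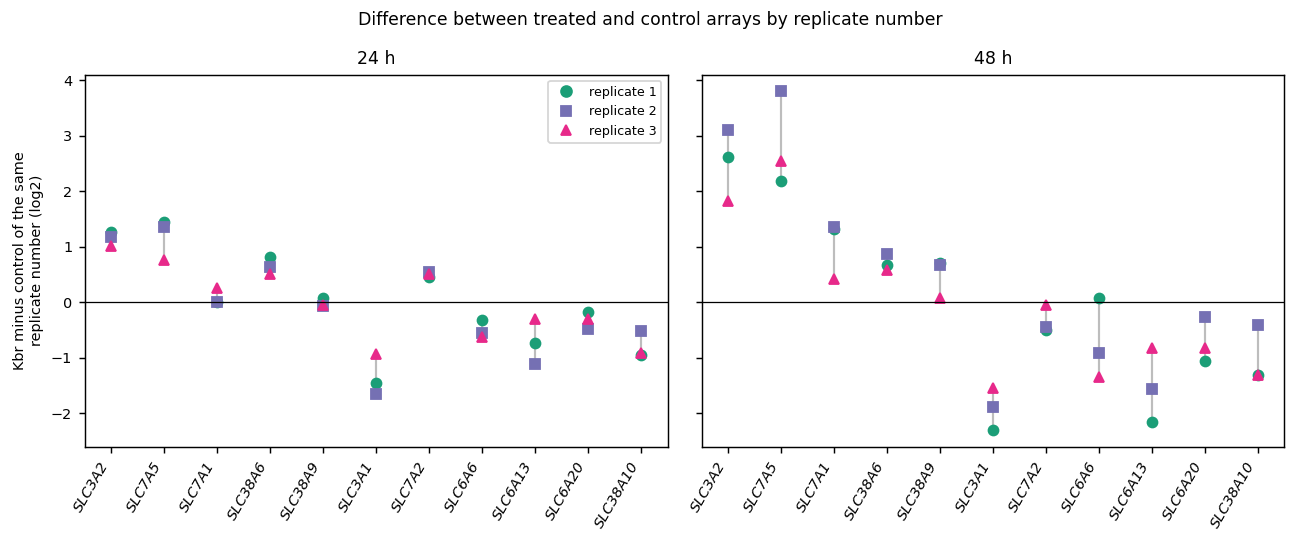
Difference between the Kbr and the control array of the same replicate number (vertical axis, log2) at 24 h (left) and 48 h (right) for the 11 transporters that differed at 48 h, with a marker for each replicate number. All 3 pairs are above 0 for SLC3A2 and SLC7A5 at both times, while replicate 3 stands near 0 for SLC38A9 at 48 h (0.077) and replicate 1 near 0 for SLC6A6 (0.069).

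Probe sets of the same gene target different parts of its transcript, and 14 of the 27 transporters had more than 1 that passed the filter by itself. For SLC7A1 3 probe sets were above the floor on all 12 arrays, and they rose at 48 h by 1.03, 1.09 and 1.47 on the log2 scale (adjusted p between 0.00558 and 0.026 over all probe sets). Another was above it on 3 arrays only, with a mean of 5.28 in Kbr cells and 2.86 in controls at 48 h, so that it entered the test through the group where it was high and adds no support. For SLC6A13 and SLC6A20 both probe sets fell, though the dimmer of SLC6A13 was above the floor on only 7 arrays. SLC6A6 was split: its brightest probe set had a mean of 9.98 in Kbr cells and 10.71 in controls at 48 h, while another had 6.37 in Kbr cells and 3.79 in controls, a log2 change of 2.58 (adjusted p = 0.0101), and 2 more had changes of 0.00 and -0.09. For SLC38A10 the brightest fell and the other 2 did not pass, with changes of 0.30 and -0.07. Of the SLC7A6 probe sets the brightest had a change of -0.02, and the dimmest rose by 1.05 (adjusted p = 0.0171). SLC6A15 likewise had a dimmer probe set that rose by 1.35 (adjusted p = 0.00268) beside 2 with changes of -0.15 and -0.09, and 1 of 3 SLC38A1 probe sets rose, by 0.40 (adjusted p = 0.0427). SLC3A2, SLC7A5 and SLC38A6 had a single probe set, so no second reading of them was at hand. SLC3A1, SLC7A2 and SLC38A9 had 1 probe set above the filter and others that stayed below the floor on all 12 arrays. The means of those others over the 12 arrays were 2.52 and 3.26 for SLC3A1, 2.16 and 2.44 for SLC7A2 and 2.89 for SLC38A9. The fall of SLC3A1 was thus read from 1 of its 3 probe sets.

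**Figure D4:**
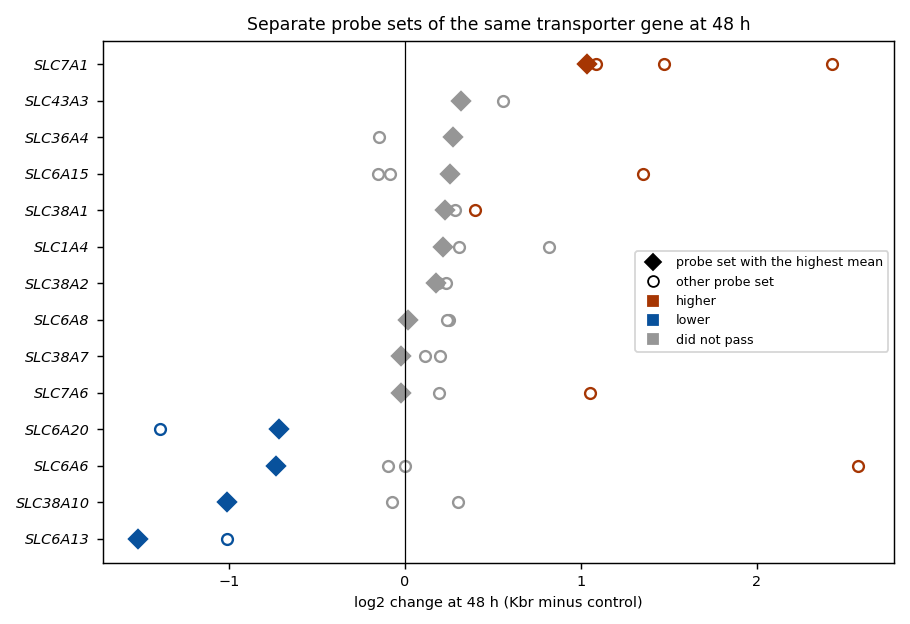
Log2 change at 48 h (Kbr minus control, horizontal axis) of every probe set that passed the filter, for the 14 transporters with more than 1. Diamonds are the probe sets with the highest mean and circles the others; the 3 probe sets of SLC7A1 that were above the floor on all 12 arrays lie at 1.03, 1.09 and 1.47, the other (2.43) passed the filter through 3 arrays only, and those of SLC6A6 run between -0.73 and 2.58.

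Genes around the transporters were described from 4 further lists. Among 17 tested regulators of the response to amino acid shortage and eIF2 kinases, 12 were higher in Kbr cells at 48 h. None was lower, before adjustment, after it or with the block. Over all genes 22.0% were higher, and 28.7% with the block. The list was chosen with earlier results of these data known, so its count is a description and not a test of the list. The median log2 change of the 17 was 0.73. EIF2S1, the subunit that the kinases phosphorylate, rose by 0.81 (adjusted p = 0.000468), ATF4 by 0.62 (adjusted p = 0.000804), the kinase EIF2AK3 by 1.02 (adjusted p = 0.000982) and ATF3 by 4.51 (adjusted p = 0.00122). At 24 h 1 of the 17 rose, ATF4, against 5.74% of all genes. With the block 3 were higher and 1 lower, near the 24.4% of all genes. Of 13 tested amino acid, peptide and organellar transporters outside the 38, 5 rose and 4 fell at 48 h, against 42.8% of all genes either way. None passed at 24 h, against 5.74% of all genes (6 at an unadjusted p under 0.05 in limma, and 5 with the block, where 24.4% of all genes passed). SLC7A11 rose by 2.91 (adjusted p = 0.000424) and the mitochondrial glycine carrier SLC25A38 by 0.93 (adjusted p = 0.00341), while SLC25A44, which brings branched-chain amino acids into mitochondria, fell by 0.47 (adjusted p = 0.00265) and SLC38A11 by 0.95 (adjusted p = 0.00278).

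Of 32 tested genes of amino acid sensing and mTORC1, 5 rose and 5 fell at 48 h, 31.2% against 42.8% of all genes, and 1 fell at 24 h, where 5.74% of all genes passed. With the block 16 passed at 48 h and 7 at 24 h, against 57.5% and 24.4% of all genes. DEPTOR, an inhibitor of mTOR, read 10.90, 11.21 and 11.23 in Kbr cells at 48 h, against 12.36, 12.41 and 12.41 in controls. It was lower on all Kbr arrays (log2 change -1.28, adjusted p = 0.000212), and it was the gene that fell at 24 h (-1.05, adjusted p = 0.00775). ITFG2, a part of the complex that holds the GATOR1 inhibitor on lysosomes, rose by 1.03 (adjusted p = 0.00141), the mTORC1 activator RHEB rose by 0.35 (adjusted p = 0.00336) and the Rag GTPase RRAGA fell by 0.53 (adjusted p = 0.00398). Among osmolyte genes, which are set beside the taurine and betaine carriers, the chaperone HSPA4L rose at 48 h by 0.52 (adjusted p = 0.0044). The osmotic transcription factor NFAT5 (-0.34, adjusted p = 0.109) and the inositol carrier SLC5A3 (0.43, adjusted p = 0.368) did not pass without the replicate block. With the block 2 of the 3 tested osmolyte genes passed at 48 h, 1 higher and 1 lower, against 57.5% of all genes. The lower was NFAT5. AKR1B1 of that list was not analysed here.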

How the data were processed

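The deposited log2 values of 54675 probe sets on 12 arrays were used. They were made by the authors with GCRMA, per the submitters' processing notes, which subtracts background by probe sequence, quantile-normalizes and summarizes probe sets; the labels name neither its version nor its settings. Weak probe sets are drawn to a floor, so changes near a log2 value of 4 are compressed, and the number of arrays limits precision. Arrays were grouped by their labels. The annotation gave 1 symbol for 41091 probe sets, and the brightest stood for the gene. Genes above 4 in 3 or more arrays were tested with limma 3.58.1 in R 4.3.3 on 4 group means, two-sided, Benjamini-Hochberg over 10665 genes. The fit was tested on simulated data. Exact tests of 3 against 3 arrays cannot go below 0.1. Members and lists were chosen with earlier results of these data known. Every transporter is described; values on each array are given for those at least 2-fold different at 48 h, those past the test at 24 h and the heteromeric chains, while the choice of other values printed was made after they were seen. Related lists name the 4 genes with the smallest p. Replicate numbers pair the arrays: deviations from group means correlated at 0.28 to 0.70 over the 18 same-number pairs, so the block fit is given where it changes a call. Sequences come from RefSeq, GRCh38.p14; promoters were to be shown for transporters past the test at 48 h, and the 3 others were added afterwards for comparison. Some genes of the related and marker lists are not reported here. The alternatives were the block, no filter or a floor of 6, median centring, repeated quantile normalization, other choices of probe set, fits of the compared arrays alone, robust variances that follow intensity, and leaving out each array.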

Additional observations from a re-analysis of the deposited data

Results flagged for a closer look

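SLC7A2 stood out because its 3 Kbr arrays lay above all controls at 24 h and below all controls at 48 h. Its effect at 48 h minus that at 24 h was -0.84 on the log2 scale (adjusted p = 0.0753 over all genes, and 0.021 with the replicate block). In the 12 fits that left out an array it lay under 0.05 in 1, that without Kbr replicate 3 of 48 h.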

How the results depend on the processing

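Blocking on the replicate number, the number of transporters past the test was 7 for Kbr against control at 24 h (4 without the block), 1 for the difference between the effects (0), 8 for time in controls (2) and 9 for time in Kbr cells (5); at 48 h it was 14 (11). Without a filter on low values 2 passed at 24 h and 0 for time in Kbr cells, and with probe sets of a gene averaged, which left 23 of the 27 to test, 2 passed at 24 h and 1 for time in controls. Fits of only the groups compared gave 7 at 48 h, 0 for time in controls and 1 for time in Kbr cells, with fewer arrays to estimate the spread, and no value for the difference between the effects. Subtracting array medians gave 3 for time in Kbr cells, and an intensity trend with robust variance gave 4 for time in controls. When single arrays were left out the counts ran between 0 and 4 at 24 h, between 9 and 13 at 48 h, between 0 and 4 for the difference between the effects, between 1 and 4 for time in controls and between 0 and 8 for time in Kbr cells. In the 48 h comparison SLC6A6 turned to 0.35 with the mean of its probe sets. In another setting each probe set was tested by itself and that with the smallest p stood for the gene. There SLC6A6 turned to 2.58 and SLC7A6 to 1.05. These 3 turns came from other probe sets; the cause of the other changes was not tested. Over all genes, 2602 passed at 24 h with the block and 612 without it, 785 and 15 for the difference between the effects, 2404 and 351 for time in controls and 3273 and 1135 for time in Kbr cells. Fits of only the groups compared called 9 genes for time in controls and 224 for time in Kbr cells, and no filter called 185 and 726 there. Leaving out single arrays gave between 81 and 769 genes at 24 h, between 0 and 469 for the difference between the effects, between 21 and 556 for time in controls and between 285 and 2203 for time in Kbr cells. No transporter that passed changed direction when a single array was left out. Such fits gave 324 values at each time over all 27 transporters, passed or not. The sign turned in 17 of the 324 at 24 h and in 11 at 48 h, all of them values that did not pass. The number of arrays, 3 a group, limits what can pass: the 95% interval of SLC38A5 at 48 h ran between -0.70 and 1.23.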
